A study of Homo sapiens with 3 samples.

Results

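The matrix metalloproteinases (MMPs), their tissue inhibitors (TIMPs) and the related ADAM and ADAMTS metalloproteases were examined by RNA-seq in cells labelled HepG2, a long-established line grown from a human liver tumour. The genes were taken by a rule on names, set with earlier results of these data known. They are rows on the main chromosomes whose gene name is MMP, ADAM or ADAMTS followed by a number, or TIMP1 to TIMP4. This gave 67 genes of 39320 rows, made up of 22 MMP, 4 TIMP, 22 ADAM and 19 ADAMTS genes. The 3 libraries, made from poly(A) RNA, are labelled replicates 1, 2 and 3 of HepG2 cells of WT (wild-type) genotype, with no treatment, age or second condition in the labels. The labels do not say whether the 3 libraries came from separate cultures, so the SD given here measures the spread between these libraries, which may be technical. Values are TPM, the transcript abundance measure deposited by the authors, which is scaled for transcript length and summed to an equal total per library, which allows genes to be compared within a library.

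MMPs are zinc-dependent enzymes that cut collagens, gelatins, laminins and other parts of the extracellular matrix. Most are secreted as inactive precursors, while the membrane-type MMPs stay bound to the cell surface. TIMPs are small secreted proteins that block the active site of MMPs and of some ADAMs. ADAMs are membrane-anchored proteases that release growth factors, cytokine receptors and Notch fragments from the cell surface, and ADAMTS enzymes are secreted relatives that act on proteoglycans, procollagens, fibrillin-associated matrix and von Willebrand factor. In the liver, MMPs and TIMPs are known for the turnover of scar matrix, and much of their RNA there comes from stellate cells and macrophages rather than from hepatocytes.

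The label was checked against marker genes. Of 18 markers of the hepatocyte secretome, 16 stayed under 1 TPM throughout and 11, with ALB, APOA1, APOB and SERPINA1 among them, were listed at 0 in all 3. AFP, a defining marker of this line, was at 0, 0.0239 and 0.0248 TPM. VTN with 23.3 ± 0.560 TPM (SD, n = 3) and RBP4 with 11.6, 10.6 and 10.8 TPM were the exceptions. The epithelial keratins KRT8 and KRT18 were high, at 2610 ± 28.6 and 2017 ± 102 TPM (SD, n = 3), whereas EPCAM was at 0, 0 and 0.0901 TPM and 3 of 8 epithelial markers reached 1 TPM in all 3 libraries. The values below therefore hold for the libraries labelled HepG2, and a liver identity is not assumed. All 16 housekeeping genes reached 10 TPM in every library. Markers of the other cell types that make these proteases were low. Of 8 fibroblast and stellate cell markers, 6 were below 1 TPM in all 3 libraries and the summed level was 8.91 to 9.53 TPM, with SPARC listed at 0. COL1A1 had 6.93 ± 0.564 TPM and PDGFRB had 2.25 ± 0.190 TPM (SD, n = 3). Of 6 macrophage and leukocyte markers, 5 were below 1 TPM, the sum was 9.34 to 11.05 TPM and PTPRC, LYZ and CD163 were listed at 0, whereas CD68, a lysosomal protein, had 9.41 ± 0.965 TPM (SD, n = 3). All 5 endothelial markers were below 1 TPM, with sums of 0.214 to 0.403 TPM.

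The inhibitors and the membrane-bound enzymes carried most of the RNA of these families. At least 1 TPM in all 3 libraries was reached by 21 of the 67 genes (31.3%), against 33.8% of all 39320 rows, a share near that background. The 65 members that RefSeq lists as protein-coding gave 32.3%, against 59.5% of all 18743 protein-coding rows. At least 10 TPM in all 3 was reached by 11 members (16.4%, or 16.9% of the protein-coding ones), against 20.7% of all rows and 40.4% of protein-coding rows. Another 20 members (29.9%) were listed at 0 in all 3 libraries, against 40.7% of all rows, and 29.2% of the protein-coding members were, against 20.0% of protein-coding rows. The median mean level was 0.0957 TPM over the members, 0.0619 TPM over all rows and 4.99 TPM over protein-coding rows. The tables hold no read counts, so the depth is unknown and a gene listed at 0 may lie below what the reads can show.

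Summed over families, the 4 TIMP genes had 589, 546 and 551 TPM in replicates 1, 2 and 3, or 562 ± 23.8 TPM (SD, n = 3). The 22 ADAM genes had 346 ± 12.1 TPM, the 22 MMP genes 61.2 ± 3.84 TPM and the 19 ADAMTS genes 37.4 ± 0.935 TPM (SD, n = 3). TIMP RNA was thus 55.8% and MMP RNA 6.08% of the members' total, which was 1007 ± 39.4 TPM (SD, n = 3). The log2 ratio of summed TIMP to summed MMP RNA was 3.17, 3.12 and 3.25 in replicates 1, 2 and 3, a mean of 3.18 ± 0.06 (SD, n = 3) on the log2(TPM + 1) scale. The TIMP sum was above the MMP sum in every library. Each log2 ratio given here was tested by an exact permutation of its signs over the 3 libraries, two-sided, for which the smallest possible p is 0.25. All 10 ratios had the same direction in 3 of 3 libraries and gave p = 0.25 in this exact test, and 0.25 after Benjamini-Hochberg adjustment over the 10.

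**Figure D1:**
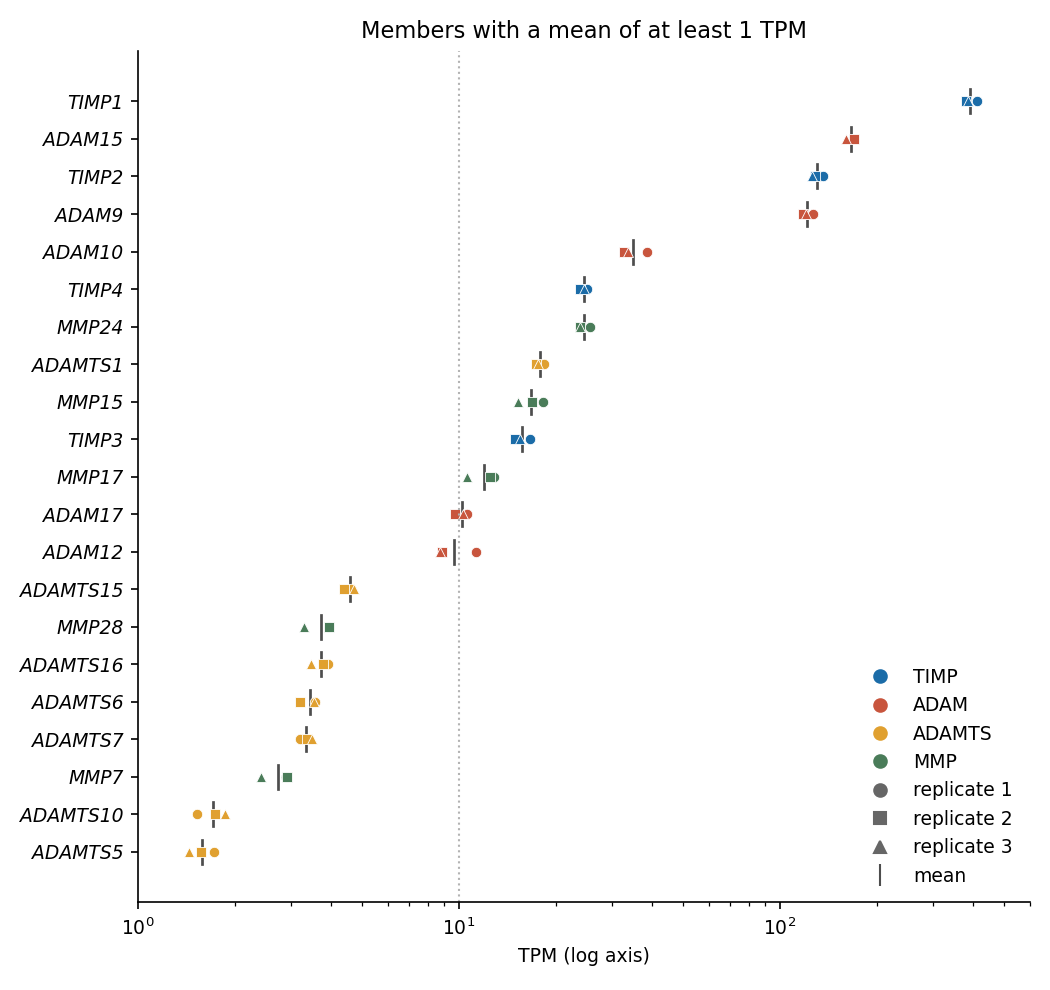
TPM of the 21 members with a mean of at least 1 TPM, on a log axis, with 1 point per library (circle, square and triangle for replicates 1, 2 and 3), a vertical bar at the mean and a dotted line at 10 TPM. TIMP1 stands above all others with 379 to 412 TPM, and ADAM15, TIMP2 and ADAM9 follow between 118 and 171 TPM.

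All 4 inhibitors passed 10 TPM in every library, against 20.7% of all rows and 40.4% of protein-coding rows. TIMP1, which inhibits most secreted MMPs and also ADAM10, had 412, 379 and 385 TPM in replicates 1, 2 and 3, a mean of 392 ± 17.2 TPM (SD, n = 3). It exceeded 97.8% of the genes that averaged 1 TPM or more and was the highest member in each library. In the deposited GRCh38 coordinates its row lies on the plus strand of chromosome X from 47582408 to 47586789.

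TIMP2 inhibits MMPs broadly and, in a complex with MMP14, takes part in activating the MMP2 precursor. It had 136, 128 and 126 TPM in the 3 libraries, a mean of 130.1 ± 5.44 TPM (SD, n = 3), and its row (chr17:78852977-78925387) is on the minus strand. TIMP1 was above TIMP2 by a log2 ratio of 1.58 ± 0.02 (SD, n = 3). By coverage, the mean read depth over a gene, this ratio fell to 0.39, so the size of the difference depended on the unit.

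TIMP4, the member with the narrowest known tissue range, had 25.1, 23.7 and 24.5 TPM, and the matrix-bound TIMP3, an inhibitor of ADAM17 and of the aggrecanases ADAMTS4 and ADAMTS5, had 16.6, 15.0 and 15.5 TPM in replicates 1, 2 and 3. TIMP4 lay above TIMP3 in each library, and the ranges of TIMP4 and of MMP24, a protease described below, overlapped. The log2 ratio of TIMP1 to TIMP3 was 4.56 ± 0.01 (SD, n = 3), against 3.43 by coverage. TIMP1, TIMP3 and TIMP4 each lie entirely within the row of a synapsin gene on the opposite strand. Those rows were low, with 0.0299 TPM for SYN1, 0.00438 TPM for SYN3 and 0.346 TPM for SYN2 as means of 3 libraries.

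Among the MMPs, most of the RNA by TPM came from enzymes that stay on the cell surface. Of the 6 membrane-type MMPs, 3 reached 10 TPM in every library, against 40.4% of protein-coding rows. The other membrane-type MMPs did not reach 1 TPM in every library. Of the 16 secreted MMPs, 2 reached 1 TPM in every library, against 59.5% of protein-coding rows, and none reached 10 TPM. MMP24, a transmembrane enzyme known from neural tissue, had 25.7, 23.8 and 23.8 TPM in replicates 1, 2 and 3. MMP15, a widely expressed transmembrane enzyme, had 18.3, 16.9 and 15.2 TPM. MMP17, which is held by a lipid (GPI) anchor, had 12.8, 12.5 and 10.6 TPM. Replicate 1 was the highest library for all 3 of these enzymes. MMP24 lies within the row of the read-through gene MMP24-AS1-EDEM2 on the opposite strand, which had 1.15 ± 0.385 TPM, and overlaps MMP24OS, with 25.5 ± 1.18 TPM (SD, n = 3), over 666 bp. The sources used here do not state a strand setting, so reads in these overlaps cannot be assigned.

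MMP14, the transmembrane enzyme that activates the MMP2 precursor and cuts collagen itself, was at 0.152, 0.106 and 0.0410 TPM in replicates 1, 2 and 3. These levels lie far below those of MMP15, with a log2 ratio of MMP14 to MMP15 of -4.02 ± 0.05 (SD, n = 3) with the pseudocount of 1, -6.44 with a pseudocount of 0.1 and -5.996 by coverage. TIMP2 exceeded MMP14 by a log2 ratio of 6.90 ± 0.03 (SD, n = 3), and this ratio was 9.39 with a pseudocount of 0.1, since MMP14 is close to 0. MMP2, the gelatinase of this activation complex, was at 0.0540, 0.0233 and 0.0553 TPM. Of the 3 partners, therefore, only the inhibitor was above 1 TPM. The remaining membrane-type enzymes were MMP25, at 0.758, 1.14 and 0.829 TPM, and MMP16, which was listed at 0 in all 3 libraries.

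The secreted MMPs best known from invading tumours and scarring tissue were at or near 0. MMP9, the other gelatinase, was at 0.1102, 0.136 and 0.454 TPM, highest in replicate 3, and the log2 ratio of MMP2 to MMP9 was -0.23 ± 0.21 (SD, n = 3), a difference about as large as its spread. Without replicate 3 this ratio was -0.11, and with a pseudocount of 0.1 it was -1.07. Of the 3 collagenases, MMP8 and MMP13 were listed at 0 throughout and MMP1 was at 0, 0 and 0.0277 TPM. Among the stromelysin group, which opens up proteoglycans and activates other MMPs, MMP3 and MMP10 were listed at 0 throughout and MMP11 was at 0, 0 and 0.122 TPM. The 2 secreted enzymes above 1 TPM were MMP28, or epilysin, with 3.71 ± 0.369 TPM, and MMP7, or matrilysin, with 2.74 ± 0.277 TPM (SD, n = 3). MMP7 is a small MMP without the hemopexin domain of most others and is made by epithelial cells. Replicate 3 was lowest for both, with 3.28 TPM for MMP28 and 2.42 TPM for MMP7.

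**Figure D2:**
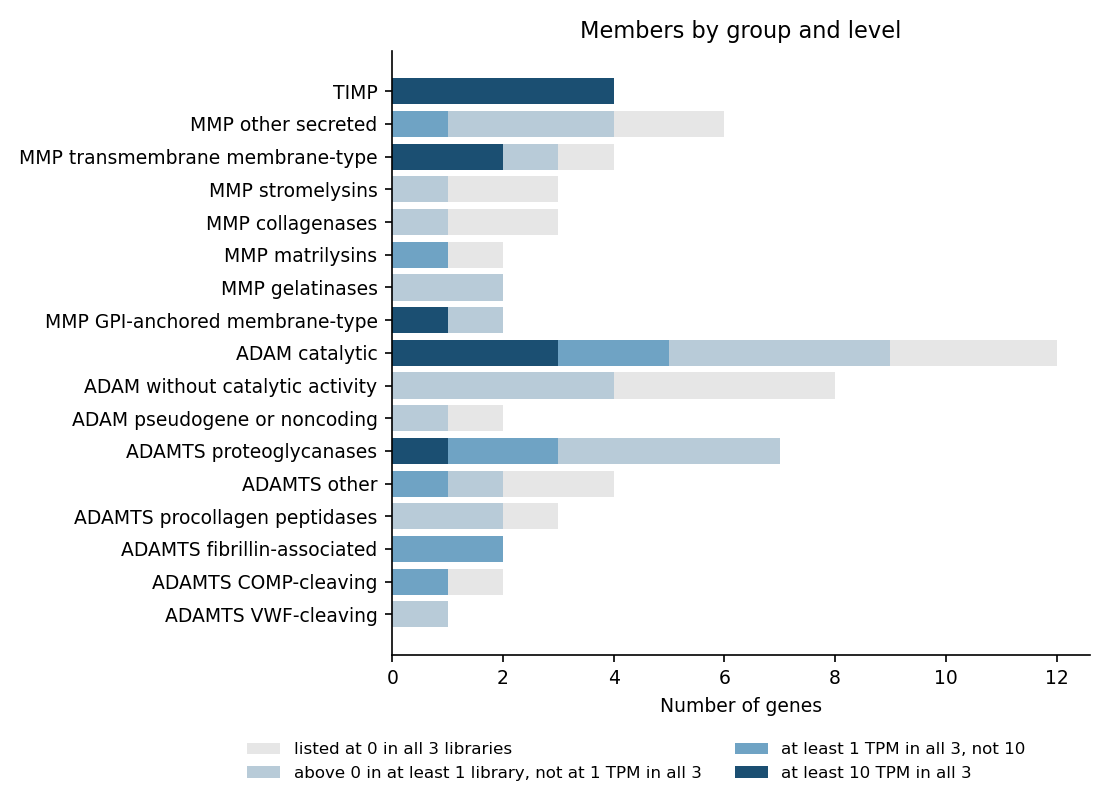
Number of member genes in each functional group, split by level from left to right into at least 10 TPM in all 3 libraries, at least 1 TPM but not 10, above 0 in at least 1 library without reaching 1 TPM in all 3, and listed at 0 in all 3. All 4 TIMP genes fall into the highest class, whereas the 3 collagenases and the 3 stromelysins hold no gene at 1 TPM.

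MMP7 belongs to a run of 9 MMP genes, all on the minus strand, at chr11:102520508-102955732 in GRCh38, a span of 435225 bp. It was the only gene of this run above 1 TPM, whereas 59.5% of protein-coding rows had at least 1 TPM in all 3 libraries. The other 8 were below 1 TPM in all 3 libraries, and 6 of them were listed at 0 in all 3, against 20% of protein-coding rows. MMP20, its nearest neighbour in the run, is separated from it by 46087 bp and was among those at 0.

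RefSeq promoter windows, each of 250 bases before and 50 after a start site, were matched by symbol for 38 of the 67 members, including 5 of this run. The AP-1 motif was searched as TGANTCA (the same on both strands), in which N is any base. The TATA motif was searched as TATAAA (either strand). They do not overlap each other here and were searched in all windows. The AP-1 motif was in the windows of 3 of these 5 genes and of 4 of all 38 members, against 7.76% of 27305 genes with a window and 5.75% of the 15843 protein-coding ones, taking the first window listed for each gene. The TATA motif was in 4 of the 5 and in 8 of the 38, against 11.95% of the 27305 and 9.63% of the protein-coding ones. The 120 bases before the start site are shown for the 3 genes of the run that hold both motifs, because 1 of them was expressed and the others were listed at 0. All 3 are on the minus strand of GRCh38.p14 and are written 5′ to 3′ along the gene, with both motifs in capitals. MMP7 spans chr11:102530748-102530867, MMP10 spans chr11:102780629-102780748 and MMP20 spans chr11:102625333-102625452.
MMP7: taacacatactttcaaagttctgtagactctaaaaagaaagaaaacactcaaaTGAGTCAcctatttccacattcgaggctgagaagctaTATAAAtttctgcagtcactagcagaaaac
MMP10: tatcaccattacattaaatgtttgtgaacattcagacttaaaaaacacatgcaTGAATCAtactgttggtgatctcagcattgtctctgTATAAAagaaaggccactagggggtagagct
MMP20: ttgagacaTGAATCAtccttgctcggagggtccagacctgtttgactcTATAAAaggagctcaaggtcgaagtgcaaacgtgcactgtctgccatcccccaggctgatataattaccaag

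In MMP7 the AP-1 motif begins at position -67 from the start site and the TATA motif at -30. In MMP10 they begin at -67 and -31, so a gene listed at 0 matches both patterns at nearly the same places as MMP7, at 2.74 TPM. The AP-1 matches differ at the central base. It is G in MMP7, and A in MMP10, MMP20 and ADAMTS12, the other member with a match. In MMP20 they begin at -112 and -72. A match describes the sequence and shows neither binding nor activity.

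The windows of the run were also poor in CpG dinucleotides, with 2 to 4 in 300 bases, against a median of 26 over the 38 matched members, 14 over all 27305 windows and 22 over the protein-coding ones. The 13 matched members with at least 1 TPM in all 3 libraries had a median of 31 CpG and the 25 below 1 TPM a median of 24, and the ranges, 4 to 44 and 0 to 47, overlapped almost fully. ADAM15 held the most among the matched expressed members, which do not include TIMP2, ADAM9, ADAMTS1 and MMP17. RefSeq start sites can differ from the deposited row starts, slightly for ADAM15 and widely for MMP26. The MMP26 window begins at 4704534 and its row at 4988191. Such windows count in the medians and motif counts given here. The ADAM15 row starts at 155051272, so the bases shown lie partly within it. Its 120 bases before the RefSeq start site (GRCh38.p14, plus strand, chr1:155051196-155051315) are shown as the opposite case to MMP7, with each of 17 CG dinucleotides in capitals.
ADAM15: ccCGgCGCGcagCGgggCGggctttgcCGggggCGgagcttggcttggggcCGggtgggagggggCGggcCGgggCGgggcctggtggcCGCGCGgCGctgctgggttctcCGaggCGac

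The ADAM family was led by its proteolytically active members. Of these 12 ADAMs, 5 reached 1 TPM and 3 reached 10 TPM in all 3 libraries, against 59.5% and 40.4% of protein-coding rows. None of the 8 ADAMs that lack protease activity reached 1 TPM in any library, and 4 of them were listed at 0 throughout. ADAM22 and ADAM11, which serve as neuronal adhesion receptors, were the highest of these with 0.835 ± 0.150 and 0.810 ± 0.0142 TPM (SD, n = 3). ADAM6, a noncoding relative, was at 0, 0 and 0.00602 TPM, and ADAM5 was listed at 0.

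ADAM15, a membrane protease with an integrin-binding disintegrin domain, had 170, 171 and 161 TPM in the 3 libraries, a mean of 167 ± 5.61 TPM (SD, n = 3). It was second only to TIMP1 among the members. Its row lies on the plus strand of chromosome 1 from 155051272 to 155062776, entirely within the row of DCST1-AS1 on the opposite strand, which had 8.27 ± 0.191 TPM (SD, n = 3).

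ADAM9, a widely expressed sheddase, had 126, 118 and 120.2 TPM in the 3 libraries, a mean of 122 ± 4.45 TPM (SD, n = 3). This range overlapped that of TIMP2, although TIMP2 was the higher of the pair within each of the 3 libraries, and this difference was not tested. ADAM9 (chr8:38996767-39105261, plus strand) opens a run of 5 ADAM genes over 841523 bp. ADAM32, separated from ADAM9 by 2267 bp, had 0.460 ± 0.114 TPM (SD, n = 3), and the other 3, ADAM5, ADAM18 and ADAM2, were listed at 0 throughout. ADAM18 and ADAM2 are known from sperm.

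ADAM10 is the main protease that cuts Notch receptors and the amyloid precursor protein at the cell surface, and ADAM17 releases tumour necrosis factor and ligands of the EGF receptor. ADAM10 had 38.5, 32.8 and 33.6 TPM and ADAM17 had 10.6, 9.73 and 10.3 TPM in replicates 1, 2 and 3. The pair did not overlap, and the log2 ratio of ADAM10 to ADAM17 was 1.68 ± 0.08 (SD, n = 3), against 1.10 by coverage. ADAM9 exceeded ADAM10 by 1.77 ± 0.07 on this scale, against 0.98 by coverage, and ADAM15 exceeded ADAM17 by 3.91 ± 0.08 (SD, n = 3), against 3.93 by coverage. ADAM17 shares 23918 bp, or 35.5% of its row, with IAH1 on the opposite strand, which had 21.6 ± 3.61 TPM (SD, n = 3).

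ADAM12, a protease that is known from developing muscle and from fibroblasts in disease, had 11.3, 8.86 and 8.74 TPM in replicates 1, 2 and 3. Replicate 1 stood apart, and its coefficient of variation of 15.2% was the highest among the 21 members that averaged 1 TPM or more. ADAM8, a protease of leukocytes, was at 0.866, 0.976 and 0.928 TPM. ADAM28 was at 0, 0.0194 and 0 TPM, ADAM21 was at 0, 0.287 and 0 TPM, and ADAM33 was listed at 0 throughout.

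Of the 19 ADAMTS genes, 7 (36.8%) had 1 TPM or more in all 3 libraries, against 33.8% of all rows and 59.5% of protein-coding rows, and 1 had 10 TPM or more. ADAMTS1, which cuts versican and aggrecan, had 18.4, 17.4 and 17.7 TPM in replicates 1, 2 and 3, a mean of 17.8 ± 0.523 TPM (SD, n = 3). Its range overlapped that of MMP15, which in turn overlapped that of TIMP3. ADAMTS1 was above MMP15 within each of the 3 libraries, whereas MMP15 was above TIMP3 in replicates 1 and 2 and below it in replicate 3. ADAMTS5, the aggrecanase beside it on chromosome 21, is separated from it by 72512 bp and had 1.58 ± 0.140 TPM, for a log2 ratio of ADAMTS1 to ADAMTS5 of 2.87 ± 0.06 (SD, n = 3). ADAMTS4, the other main aggrecanase, was at 0.0632, 0.0558 and 0.0597 TPM.

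A second pair of neighbouring proteoglycanase genes lies on chromosome 11, where ADAMTS15 had 4.56 ± 0.161 TPM and ADAMTS8, 20266 bp away on the opposite strand, had 0.590 ± 0.237 TPM (SD, n = 3). ADAMTS8 was at 0.820, 0.605 and 0.346 TPM in replicates 1, 2 and 3. Both pairs thus held a gene at over 4 TPM and a neighbour at under 2 TPM.

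The other ADAMTS genes averaging 1 TPM or more were ADAMTS16 with 3.71 ± 0.227 TPM, ADAMTS6 with 3.42 ± 0.206 TPM, ADAMTS7 with 3.34 ± 0.144 TPM and ADAMTS10 with 1.71 ± 0.167 TPM (SD, n = 3). ADAMTS6 and ADAMTS10 are associated with fibrillin microfibrils, and ADAMTS7 cuts cartilage oligomeric matrix protein. The ranges of MMP28, ADAMTS16, ADAMTS6 and ADAMTS7 overlapped from each to the next. Of the 3 procollagen peptidases, none reached 1 TPM. These were ADAMTS14 with 0.167 ± 0.0194 TPM (SD, n = 3), ADAMTS3 at 0, 0.00554 and 0 TPM, and ADAMTS2, which was listed at 0. ADAMTS13, which cuts von Willebrand factor and is known to be made by hepatic stellate cells, was at 0.309, 0.255 and 0.349 TPM.

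The members with higher levels varied little between the 3 libraries, much as other genes at that level did. Some members below 1 TPM varied more, such as MMP9 with a coefficient of variation of 82.0%, and others did not, such as ADAM11 with 1.76%. Among the 12 members with a mean of at least 10 TPM, the coefficient of variation ran from 2.79% for TIMP4 to 10.1% for MMP17, with a median of 4.33%, against 4.88% over all 8419 genes at that level. The largest range of log2(TPM + 1) among the 12 was 0.25. None of the 12 had a range above 1, against 0.273% of the 8419 genes, a share too low for a count among 12 genes to tell apart. Replicate 1 was the highest library for 11 of the 12 (91.7%), against 62.5% of the 8419 genes. Replicate 2 was the highest for the remaining 1, ADAM15 (8.33%), against 20.3%. These counts were made after the values had been seen. Coverage per unit of FPKM had a 0.99 quantile of 13.3, 12.8 and 11.5 in replicates 1, 2 and 3. This quantile, taken over rows with FPKM above 1, is a measure of relative depth, and its part in this order was not tested. In the order by mean TPM, 10 of the 20 neighbouring pairs among the 21 members that averaged 1 TPM or more had overlapping ranges.

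Of the 45 members below 1 TPM in every library, 14 were above 0 in all 3 libraries, 3 in 2 libraries and 8 in a single library. For the 8 last named, such as MMP1, MMP11 and ADAM28, presence itself was not repeated between libraries.

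The order of some members depended on the unit. Coverage per FPKM was set relative to its 0.99 quantile in the library, which is called the highest ratio here and was given the value 1. Of the 12 members with a mean of at least 10 TPM, 5 were at that highest ratio, namely TIMP2, TIMP3, TIMP4, ADAMTS1 and MMP15. TIMP1 was at 0.436, ADAM9 at 0.276 and MMP17 at 0.195. Among the 21 members with a mean of at least 1 TPM, the highest ratio, taken as 0.99 or more, was reached by 6 of 7 that have 1 transcript in RefSeq and by 1 of 14 that have several, and TIMP1 was the exception among the 7. By mean coverage, TIMP1 stayed first at 1020 and TIMP2 moved above ADAM15, at 778 against 727. ADAM9 kept place 4 at 200.2, and MMP17 moved from place 11 to place 16 at 14.0, below the secreted MMP7 at 16.4. Coverage is not scaled for library size. The transcripts behind each gene value were not analysed here.

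**Figure D3:**
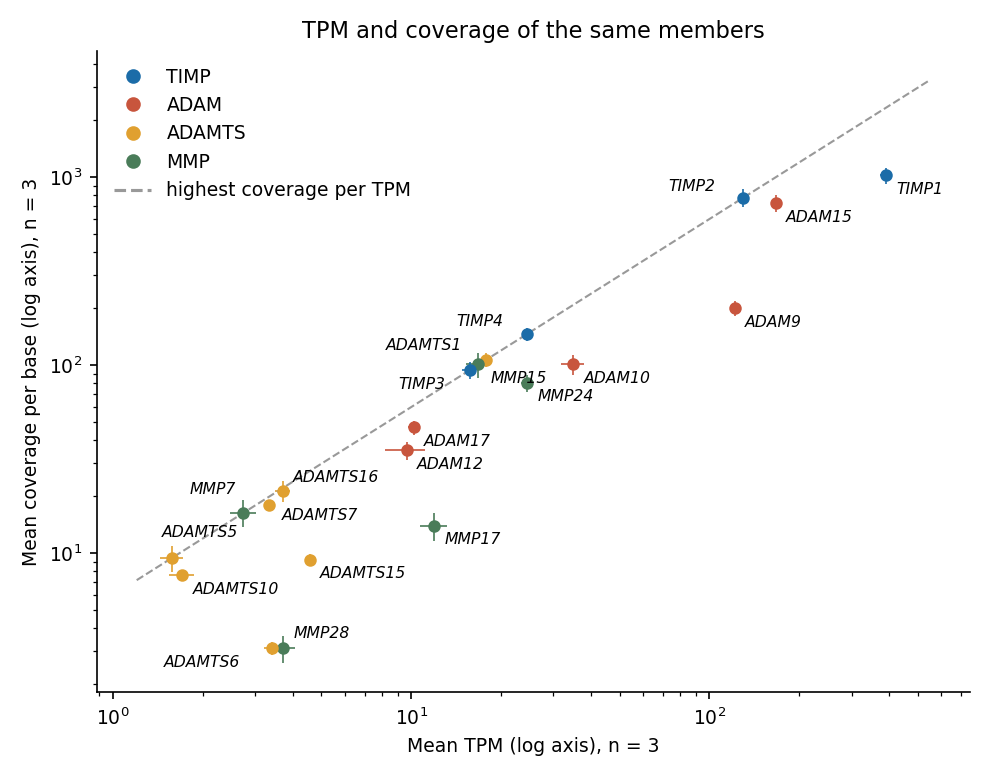
Mean coverage per base against mean TPM, both on log axes, for the 21 members with a mean of at least 1 TPM, with bars for the SD over 3 libraries and a dashed line at the highest ratio of coverage to TPM. TIMP2, TIMP3, TIMP4, ADAMTS1 and MMP15 lie on the line, whereas ADAM9, MMP17, MMP28 and ADAMTS6 lie furthest below it.

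The genes that activate, hold or feed these proteases were examined through 58 genes in 8 lists, of which 35 (60.3%) had at least 1 TPM and 21 (36.2%) had at least 10 TPM in all 3 libraries, against 59.5% and 40.4% of protein-coding rows, so the share at 1 TPM was near that background. Of 4 convertases that cut the precursors of ADAMs and of membrane-type MMPs, 3 had 10 TPM or more in all 3 libraries. The other 1 was below 1 TPM in all 3. FURIN had 63.5 ± 3.30 TPM and PCSK6 had 58.7 ± 1.93 TPM (SD, n = 3). Among genes of the plasminogen system, which activates secreted MMPs, PLAUR, the urokinase receptor, had 39.2 ± 1.502 TPM (SD, n = 3). Urokinase itself, PLAU, had 0.913 ± 0.132 TPM (SD, n = 3).

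Of 6 other inhibitors, 4 reached 1 TPM and 1 reached 10 TPM in all 3 libraries, against 59.5% and 40.4% of protein-coding rows. TFPI2, a secreted serine protease inhibitor, had 49.5 ± 3.84 TPM, and RECK, a membrane-anchored inhibitor of MMPs, had 8.95 ± 0.819 TPM (SD, n = 3). A2M, a plasma inhibitor of proteases that the liver makes, had 0.195 ± 0.0700 TPM (SD, n = 3). Among cell-surface partners, 4 of 5 passed 10 TPM, led by BSG, an inducer of MMPs, with 633 ± 11.2 TPM and CD63, a receptor partner of TIMP1, with 512 ± 20.6 TPM (SD, n = 3).

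Of 9 genes that traffic or mature ADAM10 and ADAM17, 4 passed 10 TPM in all 3 libraries, against 40.4% of protein-coding rows. TSPAN17, a tetraspanin partner of ADAM10, had 27.5 ± 1.26 TPM, and FRMD8, which stabilises the iRhom and ADAM17 complex, had 26.7 ± 1.49 TPM (SD, n = 3). Of 13 substrates of ADAM shedding, 9 reached 1 TPM and 6 reached 10 TPM, against 59.5% and 40.4% of protein-coding rows. The highest were APP with 157 ± 2.24 TPM and NOTCH2 with 70.8 ± 6.08 TPM (SD, n = 3). TNF, the name-giving substrate of ADAM17, was at 0.0287, 0 and 0 TPM. Of 9 ADAMTS relatives and astacin proteases, 4 reached 1 TPM, with BMP1, the procollagen C-proteinase, at 42.6 ± 1.10 TPM and ADAMTSL5 at 8.46 ± 0.253 TPM (SD, n = 3). Of 5 classic ADAMTS substrates, VWF alone reached 1 TPM, with 1.36 ± 0.125 TPM, followed by BCAN with 0.273 ± 0.0658 TPM (SD, n = 3).

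**Figure D4:**
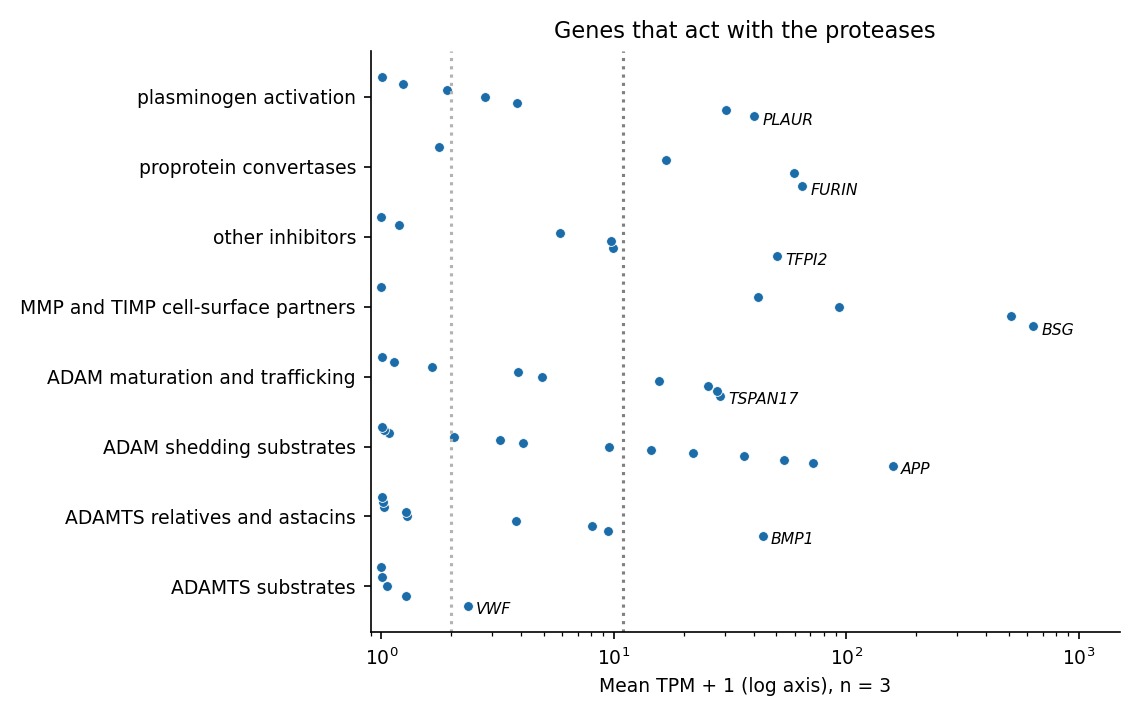
Mean TPM + 1 on a log axis for 58 genes in 8 lists of activators, inhibitors, partners, substrates and relatives, 1 point per gene with the highest of each list named and dotted lines at 1 and 10 TPM. BSG and APP are the highest of the cell-surface partners and of the shedding substrates, while the ADAMTS substrates lie near 0.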

How the data were processed

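Poly(A) RNA of 3 libraries labelled wild-type HepG2 was sequenced as 150 bp paired-end reads. The submitters' processing notes name Trim Galore 0.6.2, FastQC 0.11.8, STAR 2.6.1a, StringTie (no version) and the GRCh38 build, and the annotation and strand setting are not given in the sources used here. The authors deposited TPM, scaled to the same total in each table, FPKM, scaled for length and library size, and coverage, the mean depth over a gene. No read counts were among the deposited values. The depth is therefore unknown, no counting error was computed, and precision is the SD over 3 libraries. Tables were joined on gene, strand and coordinates, which kept 43389 rows, of which 39320 lie on the main chromosomes or the mitochondrial genome. Another 9 rows with member names lie on alternative contigs, all listed at 0.

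TPM was used as deposited, with a pseudocount of 1 for log2 values. A mitochondrial tRNA row, TRNC, took 16.9% to 17.2% of TPM in each library and lowers other values alike. Expressed genes were those with at least 1 TPM in all 3 libraries. Ratios were tested by exact two-sided permutation of their signs. Other pseudocounts, limits, scalings and units were tried, as was leaving out each library. RefSeq biotypes, transcript numbers and promoters are those of GRCh38.p14, and positions are those of the deposited rows. Members with a mean of at least 10 TPM were given in every library, those from 1 to 10 TPM by mean and SD, the rest by group, with the best-known named. Further members below 1 TPM, such as ADAM11, ADAM21, ADAM22, ADAM32, MMP14, MMP16, MMP25 and the genes of each run, and A2M, PLAU and TNF, were named after their values were seen, and the overlaps, runs and motifs were chosen likewise. The 2 highest genes of each list of related genes were named, except for 1 that is not reported here. Members and lists were chosen with earlier results of these data known. Python 3.11.15 was used with pandas 2.3.3, statsmodels 0.14.6, scipy 1.17.1, matplotlib 3.10.9 and numpy 2.4.6.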

Additional observations from a re-analysis of the deposited data

How the results depend on the processing

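No paired analysis was possible because a single group was sequenced. The 10 ratios kept their direction under all 60 alternatives run for them, but only coverage in place of TPM could have reversed one. Another pseudocount, FPKM or a left-out library cannot reverse a ratio that has the same sign in all 3 libraries. The 4 counts of members stayed within 1.5 times under all 26 alternatives. Lowering the limit from 1 to 0.1 TPM took the count from 21 to 31 members, close to that bound. Without mitochondrially encoded genes the summed TPM was 76.6 for MMP, 703 for TIMP, 434 for ADAM and 46.8 for ADAMTS genes. With the value of TRNC, a mitochondrial tRNA, recomputed from its coverage, the sums were 73.6, 676, 416 and 45.0 TPM. Both settings take out a share that was nearly equal in every library. Median-of-ratios scaling moved no sum by 1 SD. With each replicate left out, the sums ranged from 59.5 to 63.3 TPM for MMP, 548 to 570.1 TPM for TIMP, 340 to 352 TPM for ADAM and 36.9 to 37.8 TPM for ADAMTS genes. Under the same settings 21 members kept at least 1 TPM, 11 to 12 had at least 10 TPM and 20 to 25 were listed at 0. With 3 libraries the test cannot pass a threshold under any setting. The unknown depth limits every member listed at 0.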
